A study of Gallus gallus with 2 samples.

Results

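Gap junction and Popeye domain genes of embryonic heart muscle were described in 2 RNA sequencing libraries of chicken (Gallus gallus) hearts. The 6 genes were taken by their symbols, GJA1, GJA5 and GJC1 among the connexins and POPDC2, BVES and POPDC3, from 17108 annotated genes that carry a value in each library. All 6 stand once in the tables and passed the filter on low values, a mean of 1 FPKM or more over both libraries, as did 10824 of the 16737 genes left after entries of the same symbol were summed. They were chosen with their values in these libraries known, so the levels and differences below are a description without a test.

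Connexins assemble into channels that join the cytoplasm of neighbouring cells, and in heart muscle they let the action potential pass from cell to cell. The connexin make-up differs between pacemaker, atrial, ventricular and fast-conducting muscle, and it shifts as the heart tube matures. Popeye domain proteins are membrane proteins with an intracellular domain that binds cyclic AMP, and they are abundant in heart and skeletal muscle. In mice, loss of Popdc2 or of Bves slows the sinus rhythm under stress.

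Fertilized brown leg horn eggs were kept at 37 °C for 24 h. The NO group then received 20 µl of spermine NONOate at 10 µM through the air sac, and the vehicle group received 20 µl of 1X phosphate-buffered saline. Spermine NONOate is a donor that releases nitric oxide (NO) and leaves spermine behind, and no group received spermine alone, so the effects of the gas and of the polyamine cannot be told apart. Hearts were removed at 45 h, a time the labels do not clearly tie to the start of incubation or to the injection. For both groups 10 hearts were pooled and sequenced as 1 library, called the NO library and the control library here, and no difference between them has a replicate check. The question the design poses is how the heart transcriptome differs after the donor.

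Levels are the deposited FPKM (sequenced fragments per kilobase of a transcript, relative to library depth). Each carries the 95% interval that the quantification tool gave it. Because FPKM are set per length, genes are compared with each other below. Such a comparison holds only as far as the annotated transcript lengths do, and these were not checked. An interval covers the estimate in 1 library and not the spread between pools of hearts. The FPKM summed to 536333 in the NO library and 487268 in the control library. From the widths of the intervals, the fragments behind a gene can be bounded from below, and these lower bounds ran from 440.2 to 7551 per library over the 6 genes, while a single fragment counted for 1.63 times more FPKM in the control library, which was sequenced less deeply. In a pooled heart, fewer cells of a type and less RNA per cell cannot be told apart.

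Markers of heart muscle were present in both libraries, as the tissue label calls for, but their levels were far from equal. Of 17 measured heart muscle markers, 16 were higher in the NO library by 1.5-fold or more and 0 lower. They summed to 18785 FPKM in the NO library and 3176 FPKM in the control library, with a median log2 difference of 2.596. Cardiac troponin T (TNNT2) alone was at 3189 FPKM in the NO library and 604 FPKM in the control library. Red blood cell markers summed to 3463 FPKM in the NO library and 334 FPKM in the control library, with 6 of 9 higher and 1 lower. Markers of tissues that adjoin the heart went the other way. Neural crest and pharyngeal markers summed to 84.3 FPKM in the NO library and 426 FPKM in the control library, with 17 of 17 past 1.5-fold on the lower side. Neural markers summed to 103 FPKM in the NO library and 403 FPKM in the control library, with 10 of 12 lower and ZIC1 listed at 0 in the NO library. Endoderm and foregut markers summed to 588 and 1611 FPKM in the NO and control libraries, with 10 of 12 lower. Over all measured genes, 9.59% were higher and 22.4% lower by 1.5-fold or more. The part of this difference in tissue markers in the values of the 6 genes was not tested, and the levels are therefore also given against the heart muscle markers below.

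Of the 6 genes GJA1 alone was lower in the NO library, while GJA5, GJC1 and all of the Popeye domain genes were higher. Each difference is the log2 of the FPKM + 1 in the NO library over that in the control library, a scale that shrinks the difference of low genes. At the 1.5-fold mark 5 of the 6 genes were higher, where 9.59% of all measured genes were, and 1 was lower, where 22.4% of all measured genes were. At the 2-fold mark 4 of the 6 were higher and 0 lower, against 3.65% and 10.3% of all measured genes. The deposited intervals of the libraries did not overlap for any of the 6 genes, which held for 70.9% of all measured genes. Since the genes were chosen from this same comparison, nothing is read from these counts. The median measured gene lay at −0.11 on the log2 scale. A trimmed mean scaling of the NO library would add 0.14 to every log2 difference of well-expressed genes and an upper quartile scaling 0.15, and the direction of none of the 6 genes turned under either.

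**Figure D1:**
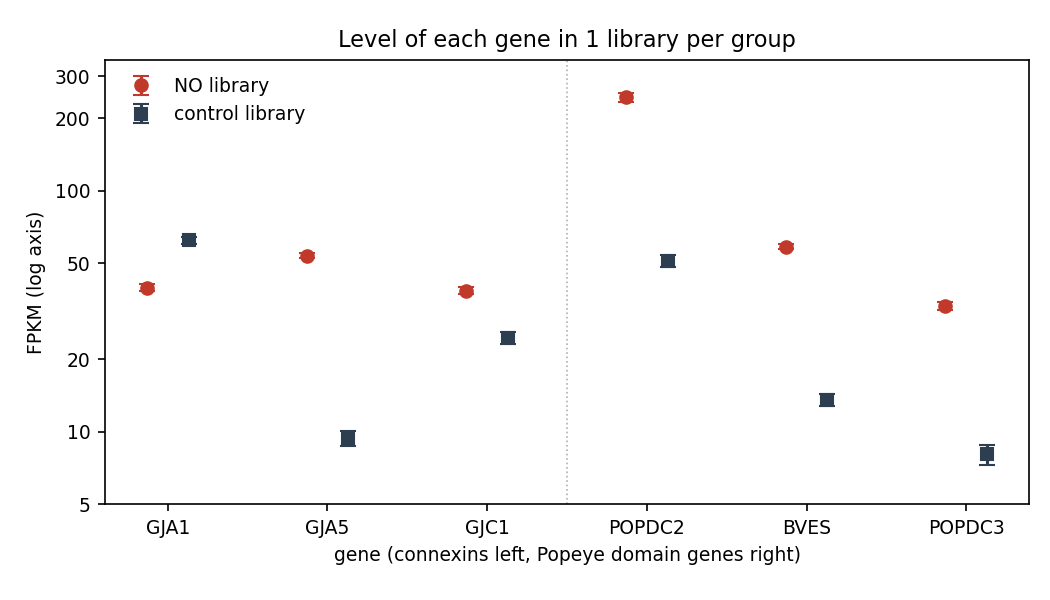
FPKM of the 6 genes on a log axis, with the NO library (red circles) left of the control library (dark squares) for each gene and bars for the deposited 95% intervals. GJA1 is the gene whose NO value, 39.7 FPKM, lies under its control value, 62.2 FPKM; for the other 5 genes the NO value is the higher one.

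GJA1 encodes Cx43, the main connexin of working ventricular muscle in the adult mammalian heart, and is also expressed by many non-muscle tissues of the embryo. It lies on chromosome 3 from 61222961 to 61230461 (ENSGALG00000014873; all positions are those of the deposited tables in galGal4, counted from 1). GJA1 was at 39.7 FPKM (95% interval 38.2 to 41.1) in the NO library and 62.2 FPKM (59.9 to 64.5) in the control library. Its log2 difference was −0.64 (−0.71 to −0.56), which is 1.55-fold lower. Against the median of all genes this is −0.53, and after trimmed mean or upper quartile scaling the values were −0.50 and −0.49, short of the 1.5-fold mark. Among all measured genes its level stood at percentile 85.2 in the NO library and 90.2 in the control library.

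GJA5 encodes the chicken counterpart of mammalian Cx40, a channel of high conductance found in atrial muscle, in the fast ventricular conduction system and in arterial endothelium. It lies on chromosome 1 from 91781764 to 91800664 (ENSGALG00000015487). GJA5 was at 53.8 FPKM (52.6 to 55.1) in the NO library and 9.36 FPKM (8.69 to 10.02) in the control library. The log2 difference was 2.40 (2.31 to 2.503), a 5.30-fold higher level on the FPKM + 1 scale. This was the largest of the 6 differences, though with a pseudocount of 5 FPKM GJA5 had 2.04 and POPDC2 2.16. GJA5 stood at percentile 89.1 of all measured genes in the NO library and 46.7 in the control library.

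GJC1 encodes Cx45, a connexin of low conductance that in mice is required early in heart tube function and later marks nodal tissue. RefSeq lists this chicken gene as GJC3, with GJC1 as a synonym. It lies on chromosome 27 from 1272878 to 1276164 (ENSGALG00000000997). GJC1 was at 38.5 FPKM (37.1 to 39.8) in the NO library, against 24.5 FPKM (23.2 to 25.9) in the control library. Its log2 difference of 0.63 (0.54 to 0.72) is 1.54-fold higher, just over the 1.5-fold mark, and with a pseudocount of 5 FPKM in place of 1 it was 0.56, just under it.

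Within a library the ratio of 2 genes does not depend on any scaling between libraries, and the balance of the 3 connexins was not the same in the 2 libraries. GJA1 made up 30.1% (29.2 to 30.9) of the summed FPKM of these connexins in the NO library and 64.7% (63.4 to 66.1) in the control library. GJA5 made up 40.8% (39.97 to 41.6) in the NO library and 9.73% (9.05 to 10.4) in the control library. GJC1 made up 29.1% (28.3 to 29.96) in the NO library and 25.5% (24.3 to 26.8) in the control library. GJA5 was thus the most abundant of the 3 connexins in the NO library and the least abundant in the control library. The ratio of GJA5 to GJA1 was 1.36 (1.2997 to 1.42) in the NO library and 0.150 (0.139 to 0.163) in the control library, 9.03 times higher in the NO library. The ratio of GJC1 to GJA1 was 0.969 (0.922 to 1.02) in the NO library and 0.394 (0.369 to 0.421) in the control library. The summed FPKM of the 3 connexins was 132 (129.7 to 134) in the NO library and 96.1 (93.4 to 98.9) in the control library, a smaller difference than in their proportions.

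**Figure D2:**
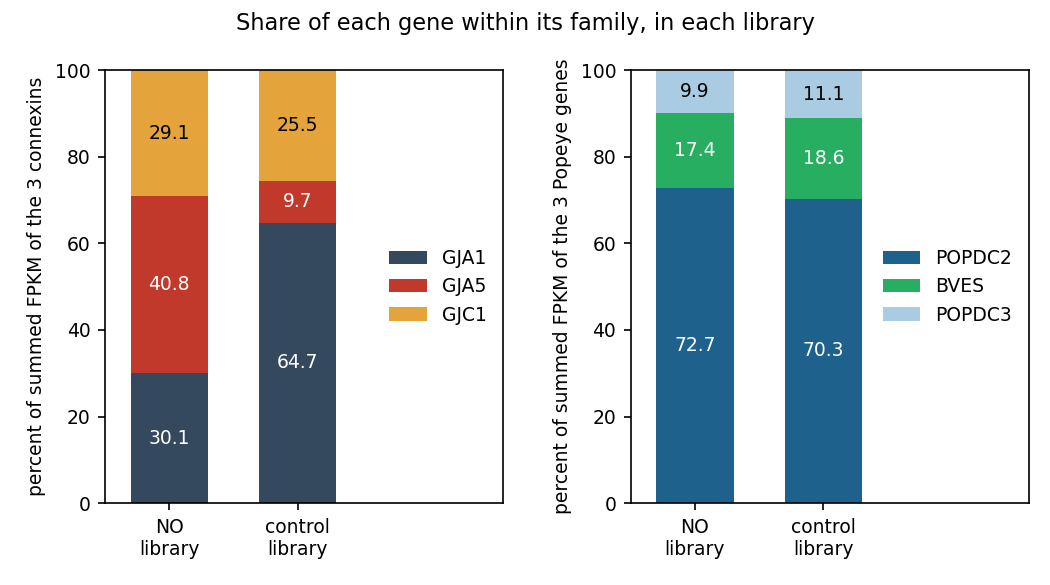
Share of each gene in the summed FPKM of the 3 connexins (left) and of the 3 Popeye domain genes (right), in percent, with the NO library left of the control library in each panel. The connexin bars differ, with GJA5 at 40.8% in the NO library and 9.7% in the control library, while the Popeye bars are alike, with POPDC2 at 72.7% in the NO library and 70.3% in the control library.

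POPDC2 was the most abundant of the Popeye domain genes in both libraries. It lies on chromosome 1 from 79597189 to 79606955 (ENSGALG00000014988). POPDC2 was at 245 FPKM (235 to 256) in the NO library and 51.2 FPKM (48.3 to 54.05) in the control library. The log2 difference was 2.24 (2.14 to 2.34), which is 4.72-fold higher. Its interval in the NO library is wide for its level, and the fragments it implies, 2283 in the NO library and 1250.2 in the control library, are lower bounds.

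BVES, also named POPDC1, was first isolated from developing chicken heart and takes part in cell adhesion besides binding cyclic AMP. It lies on chromosome 3 from 68268129 to 68295765 (ENSGALG00000015410). BVES was at 58.6 FPKM (57.2 to 60.04) in the NO library and 13.6 FPKM (12.7 to 14.4) in the control library. The log2 difference was 2.03 (1.95 to 2.12), which is 4.10-fold higher.

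POPDC3, the least studied member, lies beside BVES on chromosome 3 from 68255196 to 68259535 (ENSGALG00000027420). POPDC3 was at 33.3 FPKM (32.1 to 34.6) in the NO library and 8.05 FPKM (7.28 to 8.82) in the control library. The log2 difference was 1.92 (1.79 to 2.06), which is 3.79-fold higher. In the control library its interval overlapped that of GJA5, and these were the lowest of the 6 levels there.

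The proportions of the Popeye domain genes among themselves were close in the 2 libraries. POPDC2 made up 72.7% (71.8 to 73.7) of their summed FPKM in the NO library and 70.3% (68.7 to 71.9) in the control library. BVES made up 17.4% (16.7 to 18.02) in the NO library and 18.6% (17.4 to 19.8) in the control library. POPDC3 made up 9.87% (9.42 to 10.3) in the NO library and 11.1% (10.02 to 12.1) in the control library. The intervals of each share overlapped between the libraries. The ratio of BVES to POPDC3 was 1.76 (1.68 to 1.84) in the NO library and 1.68 (1.504 to 1.89) in the control library. Their summed FPKM was 337 (327 to 348) in the NO library and 72.8 (69.7 to 75.9) in the control library.

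The order of the 6 levels differed between the libraries. In the NO library it ran from POPDC2 over BVES, GJA5, GJA1 and GJC1 to POPDC3, and the intervals of GJA1 and GJC1 overlapped. In the control library it ran from GJA1 over POPDC2, GJC1, BVES and GJA5 to POPDC3. Among all measured genes POPDC2 stood at percentile 97.7 in the NO library and 87.8 in the control library, and POPDC3 at 82.3 in the NO library and 42.4 in the control library. In the plot of both libraries against each other, GJA5 and the Popeye domain genes lie well above the line of equal values, and GJA1 lies close to the lower 1.5-fold line.

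**Figure D3:**
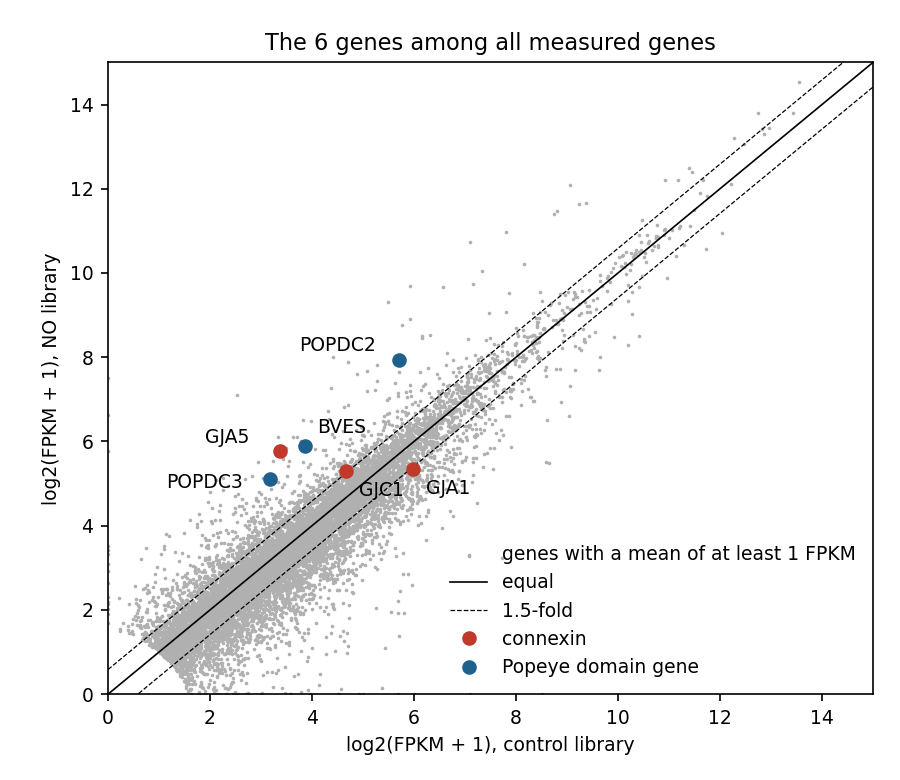
Each grey point is 1 of the 10824 measured genes, placed by log2(FPKM + 1) in the control library (x axis) and the NO library (y axis), with lines for equal values and for 1.5-fold differences. GJA5, POPDC2, BVES and POPDC3 lie at log2 differences of 1.92 to 2.40 above the line of equal values, and GJA1 lies under it at −0.64.

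Set against the heart muscle markers, which were themselves higher in the NO library, the genes did not behave alike. This measure was chosen after the values were seen. The marker sum was 18785 FPKM in the NO library and 3176 FPKM in the control library. A gene with equal FPKM in both libraries, or at the median log2 difference of −0.11, would thus also be much lower on this measure. For every 1000 FPKM of summed heart muscle markers, GJA5 had 2.87 FPKM (2.80 to 2.94) in the NO library and 2.95 FPKM (2.74 to 3.17) in the control library, with overlapping intervals. POPDC2 had 13.1 FPKM (12.5 to 13.6) in the NO library and 16.1 FPKM (15.2 to 17.1) in the control library. BVES had 3.12 FPKM (3.04 to 3.20) in the NO library and 4.27 FPKM (4.01 to 4.54) in the control library, and POPDC3 had 1.77 FPKM (1.71 to 1.84) in the NO library and 2.53 FPKM (2.30 to 2.79) in the control library. On this measure the Popeye domain genes were 1.23 to 1.43 times lower in the NO library. GJC1 had 2.05 FPKM (1.98 to 2.12) in the NO library and 7.73 FPKM (7.31 to 8.17) in the control library, 3.78 times lower in the NO library. GJA1 had 2.11 FPKM (2.03 to 2.19) in the NO library and 19.6 FPKM (18.9 to 20.4) in the control library, 9.28 times lower in the NO library. GJA5 thus differed by about as much as the summed heart muscle markers did. The Popeye domain genes differed by somewhat less than the sum, with intervals that did not overlap on this measure. These intervals cover the estimates in each library and not the spread between markers. Plain FPKM ratios of NO over control ran from 1.40 (TPM1) to 9.34 (MYBPC3) among the markers. The Popeye domain genes, at 4.14 to 4.80, lay within that range. GJC1, at 1.57, and GJA1, at 0.64, did not follow the sum. The sum is led by a few genes, such as MYL2 at 4343 FPKM and TNNT2 at 3189 FPKM in the NO library.

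The rest of the connexin family was mixed in direction. Of 24 connexin and pannexin symbols searched, 17 genes were found and 14 measured, of which 4 were higher and 5 lower in the NO library by 1.5-fold or more. The median of their log2 differences was −0.22 and the mean 0.08, which differ in sign. Of all measured genes 9.59% were higher and 22.4% lower by that much. Without GJA1, GJA5 and GJC1, 2 of the 11 other genes were higher and 4 lower. GJA1, GJA5 and GJC1 together held 77.4% of the summed FPKM of the 14 connexins found in the NO library and 72.04% in the control library.

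GJD2 encodes the main connexin of electrical synapses between neurons. GJD2 was at 6.21 FPKM (5.83 to 6.59) in the NO library and 0.890 FPKM (0.717 to 1.06) in the control library, a log2 difference of 1.93 (1.78 to 2.08). Its direction was opposite to that of the neural marker list given above. GJD2 lies on chromosome 5 from 31568439 to 31572498, near the heart muscle marker ACTC1 at 31546121 to 31552902. ACTC1 was at 2834 FPKM in the NO library and 448 FPKM in the control library. Whether the GJD2 value is tied to this nearby gene was not tested. GJA3, a connexin of the lens, was at 1.26 FPKM in the NO library and 0.273 FPKM in the control library and missed the filter.

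GJA4, an endothelial connexin, was 1.44-fold higher on the FPKM + 1 scale, under the 1.5-fold mark. Its plain FPKM ratio of NO over control was 1.54, so the call depends on the added constant. It was at 7.28 FPKM (6.73 to 7.83) in the NO library and 4.74 FPKM (4.14 to 5.35) in the control library. Of 18 endothelial and endocardial markers, 7 were higher and 3 lower by 1.5-fold or more, and they summed to 268 FPKM in the NO library and 238 FPKM in the control library. The higher and lower markers were 38.9% and 16.7% of the list, beside 9.59% and 22.4% of all measured genes.

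GJB1, GJB6 and GJA9 were lower in the NO library. GJB1, the liver connexin Cx32, was at 4.12 FPKM (3.41 to 4.82) in the NO library and 11.6 FPKM (9.97 to 13.3) in the control library, a log2 difference of −1.302 (−1.58 to −1.03). GJB6, which in mammals serves the inner ear, was at 4.64 FPKM in the NO library and 7.11 FPKM in the control library. On the FPKM + 1 scale GJB6 was 1.44-fold lower in the NO library. GJA9 was at 0.0821 FPKM (0.0151 to 0.149) in the NO library, with 6 implied fragments, and 2.09 FPKM (1.66 to 2.52) in the control library. Of 10 measured surface ectoderm markers, 6 were lower and 0 higher by 1.5-fold or more, and they summed to 323 FPKM in the NO library and 1018 FPKM in the control library. The lower markers were 60% of the list, where 22.4% of all measured genes were lower and 9.59% higher. The part of these markers in the connexin values was not tested.

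Pannexins, channel proteins with the same fold that form no gap junctions in most cells, differed less. PANX1 was at 4.07 FPKM (3.52 to 4.61) in the NO library and 4.59 FPKM (3.86 to 5.31) in the control library, with overlapping intervals. PANX2 was at 2.82 FPKM in the NO library and 3.73 FPKM in the control library. PANX3, known from cartilage and bone, was at 4.21 FPKM in the NO library and 7.31 FPKM in the control library, 1.60-fold lower.

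**Figure D4:**
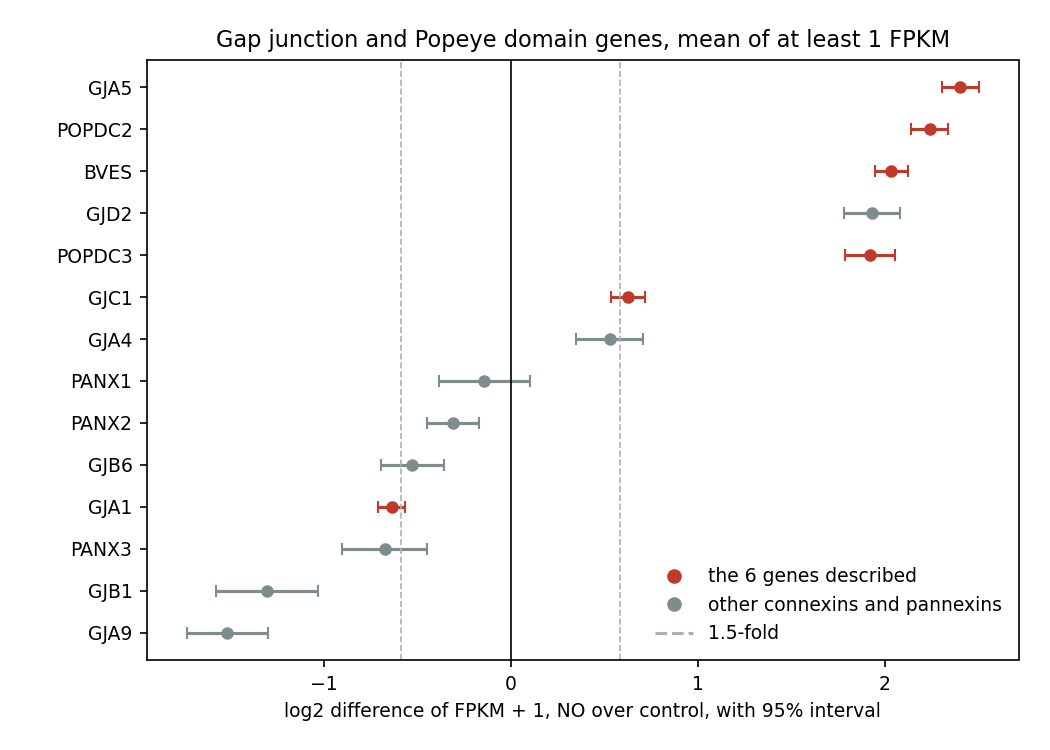
Log2 difference of FPKM + 1, NO over control, with its 95% interval, for 14 of the 17 connexins, pannexins and Popeye domain genes that passed the filter, the 6 genes described in red. GJA5 has the highest value at 2.40 and GJA9 the lowest at −1.51, and the dashed lines mark 1.5-fold.

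Some of these genes lie close together on their chromosome, with differences of 1 direction in the first pair below and of opposite directions in the second. BVES and POPDC3 are 8.59 kb apart with no other annotated gene between them, and had log2 differences of 2.03 and 1.92. GJA3 and GJB6 are 35.04 kb apart on chromosome 1, with 1 other annotated gene between them, and had 0.83 and −0.53. GJA3 missed the filter on low values and had 11.9 implied fragments in the control library. The genes on either side of the BVES and POPDC3 pair were PREP at 0.11 and LIN28B at −0.71.

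Genes of the intercalated disc, the junction that holds connexins between muscle cells, differed in both directions. Of 21 measured genes of this list, 8 were higher and 4 lower by 1.5-fold or more, and the median difference was 0.26 beside −0.11 for all genes. The higher genes were 38.1% of the list, beside 9.59% of all measured genes, and the lower ones 19.05%, near the 22.4% of all measured genes. CTNNA3, the alpha-T catenin that joins desmosomes to adherens junctions in heart, was at 32.9 FPKM (31.4 to 34.4) in the NO library and 3.36 FPKM (3.04 to 3.69) in the control library. XIRP1 (Xin), an actin-binding protein of the disc, was at 45.7 FPKM in the NO library and 8.37 FPKM in the control library. LDB3, a Z-disc protein that is also on the heart muscle list, was at 26.1 FPKM in the NO library and 4.84 FPKM in the control library. CDH2, the N-cadherin of the disc, was at 141 FPKM (139 to 143) in the NO library and 90.96 FPKM (89.2 to 92.7) in the control library.

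The genes named as lower from this list, JUP, ZYX and DLG1, are also expressed outside muscle. The part of other tissues in their values was not tested. JUP (plakoglobin) was at 49.6 FPKM (48.4 to 50.8) in the NO library and 82.9 FPKM (80.8 to 85.02) in the control library, ZYX (zyxin) had a log2 difference of −0.63 and DLG1, a scaffold protein, had −0.60. With trimmed mean scaling 1 gene of the list was past the 1.5-fold mark on the lower side. TJP1 (ZO-1), the scaffold that binds the tail of Cx43, was at 29.4 FPKM (28.7 to 29.99) in the NO library and 31.8 FPKM (30.96 to 32.5) in the control library, a log2 difference of −0.11 that equals the median of all genes.

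Partners of Popeye domain proteins and caveolar genes included higher and lower genes. Of 16 measured, 4 were higher and 3 lower by 1.5-fold or more, and the median was 0.17. These are 25% and 18.8% of the list, where 9.59% of all measured genes were higher and 22.4% lower. PDE3A and PDE4D, phosphodiesterases that degrade cyclic AMP, had log2 differences of 1.20 (1.03 to 1.37) and 0.80 (0.65 to 0.96). PTRF (cavin-1), a coat protein of caveolae, had 0.79 (0.62 to 0.96). MURC (cavin-4), the muscle form of that coat, was at 1.85 FPKM (1.66 to 2.03) in the NO library and 6.10 FPKM (5.69 to 6.52) in the control library. KCNK2, which encodes the potassium channel TREK-1 that binds Popeye proteins, was at 0.662 FPKM (0.541 to 0.783) in the NO library and 1.94 FPKM (1.69 to 2.20) in the control library. ADCY6, an adenylyl cyclase, had −0.67 (−1.08 to −0.27). Its entry spans only 1324 bases, outside the numbered chromosomes, with 80.2 implied fragments in each library. CAV3, the muscle caveolin, was low in both libraries, at 0.524 FPKM (0.318 to 0.730) in the NO library and 0.365 FPKM (0.129 to 0.600) in the control library.

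Transcription factors and signals that pattern the conduction system differed in both directions. Of 23 measured, 8 were higher and 6 lower by 1.5-fold or more, and the median was 0.14. The higher genes made up 34.8% of the list (9.59% of all measured genes), and the lower genes 26.1%, near the 22.4% of all measured genes. SHOX2, a factor of the sinus node, was at 3.87 FPKM (3.04 to 4.70) in the NO library and 0.155 FPKM (0 to 0.375) in the control library, with 1.99 implied fragments. IRX4, a ventricular factor, and NRG1, a signal of the endocardium, had log2 differences of 1.67 and 1.43. TBX5, which in mice activates Gja5, was at 26.9 FPKM (26.1 to 27.6) in the NO library and 14.5 FPKM (13.9 to 15.2) in the control library. TBX3, which in mice represses Gja1 and Gja5 in nodal tissue, was at 12.5 FPKM (11.9 to 13.02) in the NO library and 24.9 FPKM (23.9 to 25.9) in the control library. NKX2-5 was at 95.2 FPKM in the NO library and 79.99 FPKM in the control library. IRX1, ID3 and KLF4 had the lowest values of the list, at −1.75, −1.32 and −1.08.

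Several channels and calcium handling genes of cardiac excitation were higher in the NO library. Of 18 measured, 10 were higher and 2 lower by 1.5-fold or more, and the median was 0.63. That is 55.6% of the list on the higher side and 11.1% on the lower, beside 9.59% and 22.4% of all measured genes. PLN (phospholamban) and CASQ2 (calsequestrin) of the sarcoplasmic reticulum had log2 differences of 4.57 and 2.23. SLC8A1, the sodium-calcium exchanger that the tables list as NCX1, was at 146 FPKM in the NO library and 32.8 FPKM in the control library. CACNA1G, a T-type calcium channel, was at 0.257 FPKM (0.211 to 0.303) in the NO library and 1.88 FPKM (1.71 to 2.04) in the control library, and SCN3B, a sodium channel subunit, had −0.59 (−0.83 to −0.35). HCN4, the pacemaker channel, was not matched to a symbol and is not analysed here.

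**Figure D5:**
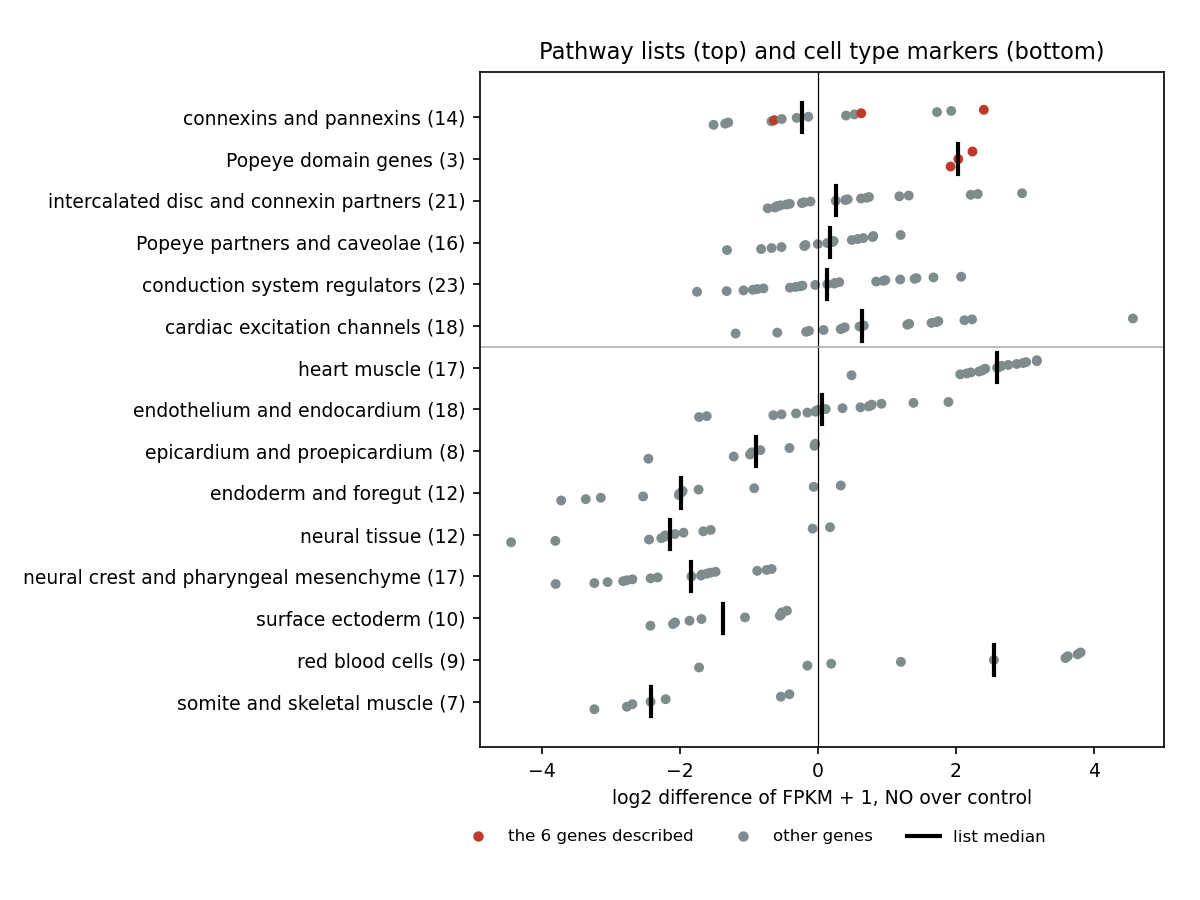
Log2 difference of FPKM + 1, NO over control, for each measured gene (points) of the pathway lists (above the line) and cell type marker lists (below it), with the number of measured genes in brackets and a bar at each list median. The Popeye domain genes have a median of 2.03, the heart muscle markers 2.596 and the connexins and pannexins −0.22, while the medians of the neural and of the endoderm markers are −2.15 and −1.99.

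The genes whose pair of levels lay nearest to each of the 6 were found as the smallest distance between log2(FPKM + 1) values over the 2 libraries, which is a narrow basis for likeness. Nearest to GJA5 were MYH7, a myosin heavy chain, at a distance of 0.13, CCDC141 at 0.14 and PPP1R3B at 0.20. Nearest to POPDC2 were NPPB, a natriuretic peptide, at 0.30, APOBEC2 at 0.46 and NPC2 at 0.50. Nearest to BVES were MYOM1, a protein of the M-band, at 0.10, ASB12 at 0.14 and RCSD1 at 0.21, and nearest to POPDC3 were PRSS23 at 0.084, MSRB3 at 0.14 and DNAJC12 at 0.16. Nearest to GJA1 were PAF1, a subunit of a transcription elongation complex, at 0.0082, MRPL10, a mitochondrial ribosomal protein, at 0.041 and QPCTL at 0.058. Nearest to GJC1 were KIAA1143 at 0.045, DPAGT1 at 0.079 and TAX1BP1 at 0.086. MYH7 was at 49.99 FPKM in the NO library and 8.83 FPKM in the control library, and MYOM1 at 62.8 FPKM in the NO library and 13.3 FPKM in the control library.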

How the data were processed

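RNA was measured in 1 NO library and 1 control library, each from 10 pooled hearts. Per the series design text and the submitters' processing notes, STAR 2.4.2a placed HiSeq 2500 reads on galGal4 (Ensembl release 81) and Cufflinks 2.2.1 estimated expression; bcl2fastq and Cuffdiff are also named. Strandedness and RNA selection are not given in the sources used here. The deposited files hold the authors' FPKM with 95% intervals. Listed starts count from 0 (among 4478 genes spanning up to 3000 bases, end minus start was divisible by 3 for 1911), so 1 was added.

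Entries were joined by identifier and summed by symbol. Genes averaging 1 FPKM or more were kept, and log2 ratios of FPKM + 1 were taken, NO over control. Their intervals combine both deposited ones, taken as 2 SD on each side. Squared ratios of FPKM to that SD give implied fragments, a lower bound; the measured genes had medians of 977 and 715 in the NO and control libraries. As each group is 1 library, no test was run and no SD or p-value is given. The functions were tested on simulated data. Python 3.11.15, numpy 2.4.6, pandas 2.3.3 and matplotlib 3.10.9 were used.

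The members and lists were chosen with earlier results of these data known. Named were the 6 genes, all connexins and pannexins, per other list up to 3 genes higher and 3 lower by the largest difference of at least 1.5-fold with 50 implied fragments, 9 genes whatever their value, and the 3 genes nearest to each of the 6; RefSeq synonyms were accepted. A few genes named by this rule are left out of the text. The flanking genes and the levels against heart muscle markers were added after values were seen. Lists of red blood cell, epicardial and somite markers had medians of 2.55, −0.90 and −2.43. Protein and promoter sequence comparisons were not made, and sequences are not analysed here. Alternatives were 2 other pseudocounts, 2 other filters, 3 scalings and another way to join symbols.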

Additional observations from a re-analysis of the deposited data

How the results depend on the processing

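The direction of the log2 difference of each of the 6 genes was the same under the 3 scalings. The other alternatives could not turn it. A pseudocount keeps the sign, and the filters and the joining of symbols left the 6 values unchanged. Over all settings the values ran from −0.65 to −0.49 for GJA1, 2.04 to 2.55 for GJA5 and 0.56 to 0.77 for GJC1. They ran from 2.16 to 2.39 for POPDC2, 1.78 to 2.18 for BVES and 1.55 to 2.06 for POPDC3. The values with trimmed mean scaling were −0.50, 2.54, 0.76, 2.38, 2.17 and 2.06 in that order of genes, and with upper quartile scaling −0.49, 2.55, 0.77, 2.39, 2.18 and 2.06; 0 of the 6 genes were then at least 1.5-fold lower. With a pseudocount of 0.1 FPKM GJA5 was at 2.51. At that setting 5 connexins and pannexins were at least 1.5-fold higher and 6 lower, against 4 and 5 as reported. With a pseudocount of 5 FPKM GJA5, BVES and POPDC3 were at 2.04, 1.78 and 1.55.

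With a pseudocount of 5 FPKM the counts over all genes were 580 higher and 1427 lower at 1.5-fold and 201 and 484 at 2-fold, against 1038, 2420, 395 and 1115 as reported. Genes higher were 30.02% of those past 1.5-fold as reported, 41.8% (1401 against 1953) with trimmed mean and 42.6% (1432 against 1932) with upper quartile scaling. List counts at 1.5-fold moved as follows. With a pseudocount of 5 FPKM, 2 connexins and pannexins, 2 disc genes, 1 Popeye partner and 0 channels were lower, and 2 Popeye partners higher. With a filter at 5 FPKM, 2 connexins and pannexins, 2 Popeye partners, 5 conduction regulators and 5 channels were higher, and 3, 1 and 0 lower among connexins and pannexins, Popeye partners and channels. Under both scalings 3 connexins and pannexins, 1 disc gene and 1 channel were lower, and after rescaling without the most abundant genes 2 disc genes and 1 channel. These shifts follow from fewer genes passing from the added constant or from the scaling factor. No paired analysis was possible because each group has 1 library. Without replicates, depth limits only the estimate within each library.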

Other observations

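The annotated genes next to the other members had these values. POPDC2 lies 3.77 kb from COX17, a copper chaperone of cytochrome oxidase, which was at 102 FPKM in the NO library and 44.6 FPKM in the control library, a log2 difference of 1.17. On its other side, 1.43 kb away, PLA1A, a phospholipase, was at 1.12 FPKM in the NO library and 4.13 FPKM in the control library, a log2 difference of −1.27. ACP6, 13.9 kb from GJA5, was at 8.06 FPKM in the NO library and 6.55 FPKM in the control library. TBC1D32 beside GJA1 and ADAM11 beside GJC1 were under 1 FPKM in both libraries, at 0.683 and 0.236 FPKM in the NO library and 0.757 and 0.818 FPKM in the control library. Without a replicate none of these differences was tested.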
